A study of Mus musculus with 8 samples.

Results

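The genes described here are 9 genes of blood coagulation and plasminogen activation, measured in cells of the mouse mammary gland sorted by Cd11b staining. They are the tissue factor gene F3, the factor VII, X and V genes F7, F10 and F5, the anticoagulant genes Tfpi and Thbd, and the plasminogen activation genes Plau, Plaur and Serpinb2. They are 9 of the 18193 genes that had a probe set of their own on the arrays, and each gene was read from the probe set with its highest mean signal over the 8 arrays. F5 and Serpinb2 were chosen by their signals on these same arrays, so their values are given as a description, with no test. The other 7 were tested in a fit over all genes.

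Mammary cells that stained for Cd11b were sorted from 4 groups of 6-week-old FVB females, all given the dimerizer. MMTV-iFGFR1 transgenic mice were treated for 48 hours and set against control littermates without the transgene treated for 48 hours. A second set of MMTV-iFGFR1 transgenic mice was treated for 4 weeks and set against control littermates treated for 4 weeks. The transgene carries an inducible fibroblast growth factor receptor 1 that the dimerizer brings together, driven by the promoter of the mouse mammary tumour virus, whose activity is chiefly in mammary epithelium. Each group has 2 arrays, and each array holds amplified RNA pooled from 3 mice, so the spread between arrays is that between pools and not between mice. No group went without the dimerizer, and the mice treated for 4 weeks were also older at harvest, so that treatment time and age cannot be told apart. For transgenic 4 weeks pool 2 the labels conflict, since 1 free-text field calls its mice non-transgenic and the others call them transgenic. The pool was kept in the transgenic group, and the 4 weeks genotype differences of the 9 genes and of the pathway genes named are also given without it.

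Coagulation starts when tissue factor, a membrane protein, binds factor VIIa, and the complex activates factor X. Factor Xa with its cofactor, factor Va, turns prothrombin into thrombin, which cleaves fibrinogen and the receptors of the PAR family. Tissue factor pathway inhibitor blocks the first steps, and thrombomodulin turns thrombin towards the activation of protein C. Plasminogen is activated to plasmin by urokinase on its cell surface receptor, and plasminogen activator inhibitor 2, the product of Serpinb2, inhibits urokinase. Macrophages are known to make tissue factor, urokinase and its receptor, and those of the peritoneal cavity are known for factor V.

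The values are MAS5 signals, a linear brightness that the authors scaled so that the trimmed mean of each array is 500. Array medians ran from 96.4 to 126.9. Precision is set by the number of arrays. All 8 macrophage markers, among them Csf1r and Adgre1, lay above the array median on all 8 arrays. So did all 10 fibroblast markers. Dcn, the brightest of these, had a mean signal of 23415. Among the macrophage markers the mean was 78638 for Csf1r, the brightest, and 12703 for Adgre1. Lying above the median thus does not tell macrophages from other cells. Control 4 weeks pool 2 stood apart in RNA quality: its ratio of 3′ to 5′ signal for the beta-actin control was 37.0-fold, against 6.84- to 13.9-fold on the other 7 arrays. A gene passed the filter on low signals if it lay above the array median on at least 2 arrays, which 13041 genes and all 9 genes of the list did. Of the 9, 7 lay above the median on all 8 arrays, and F7 and Plau on 2 arrays each. Differences are on the scale log2(signal + 30.8), with the 25th percentile of the whole table as the offset, and they understate the change of dim genes.

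Factor V and plasminogen activator inhibitor 2 had the widest spread of group means of the 9 genes on the log2 scale (SD 0.985 and 1.50), and they ran together. F5 was 5.29 times lower in control pools at 4 weeks than in control pools at 48 hours, and Serpinb2 was 10.9 times lower. In the transgenic pools the signals at 4 weeks were 0.876 of those at 48 hours for F5 and 0.770 for Serpinb2. The transgenic mean of both genes was above the control mean at 4 weeks and below it at 48 hours, where the pools of Serpinb2 overlap. Of the 7 tested genes, 0 reached limma's adjusted p of 0.05 in the comparison of the genotypes at 48 hours, at 4 weeks, in the difference between these, or between the times in either genotype.

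**Figure D1:**
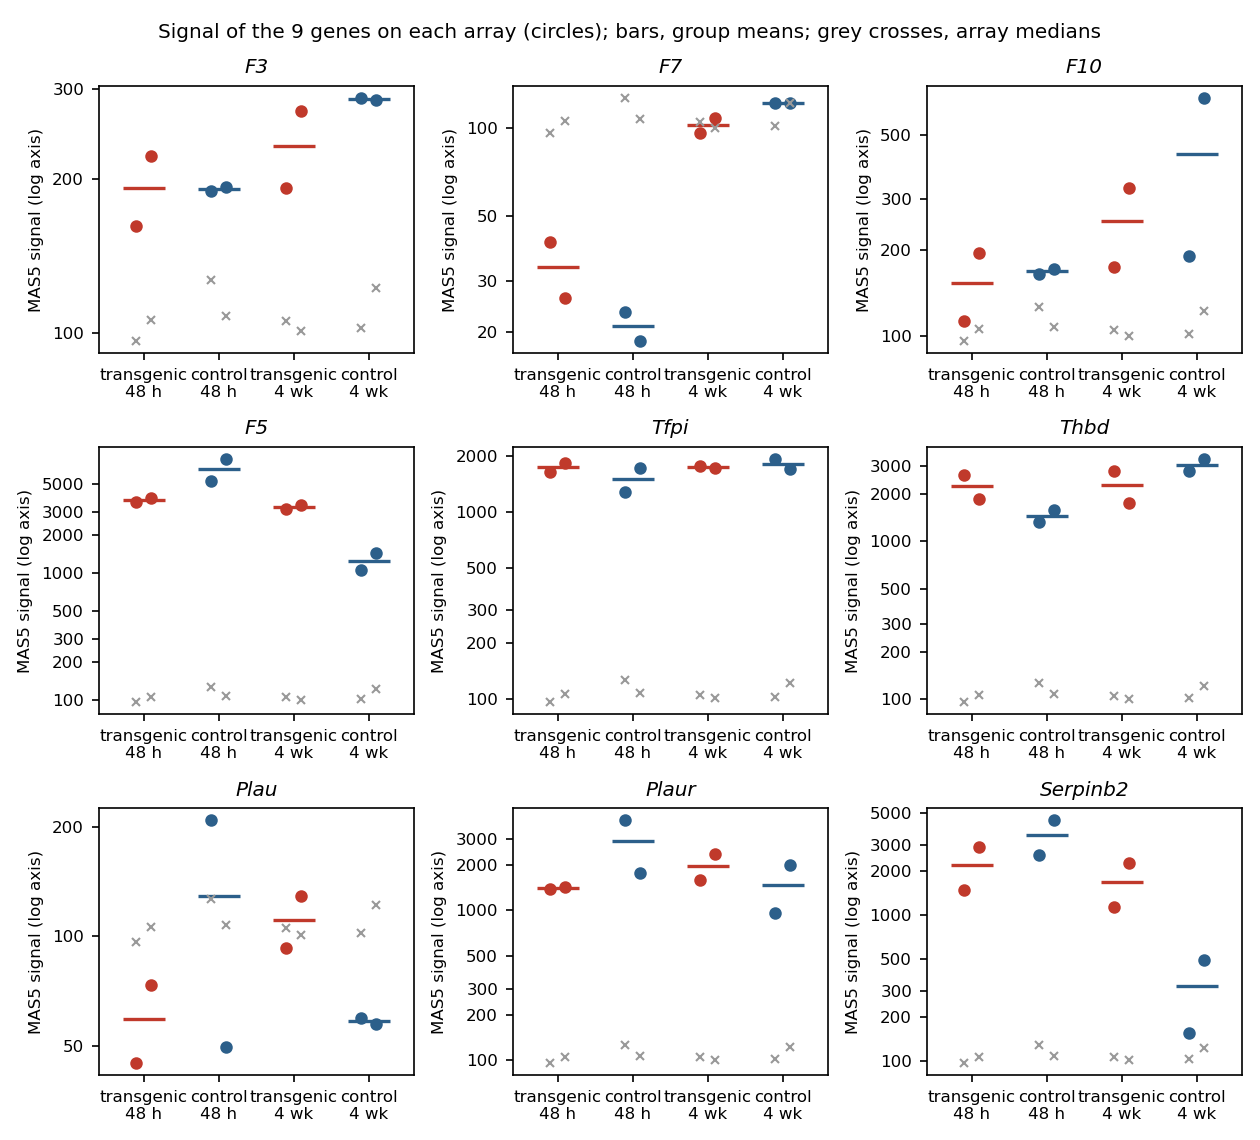
MAS5 signal (log axis) of each of the 9 genes on the 8 arrays, by group. Circles are pools, with transgenic in red and control in blue, bars are group means, and grey crosses are the median signals of the arrays. F5 and Serpinb2 are lowest in the control 4 weeks pools, Thbd is highest there, F7 lies near the array median at 4 weeks and below it at 48 hours, and the probe set shown for Tfpi has the smallest ratio of the highest array to the lowest.

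F3 encodes tissue factor (chr3:121723537-121735052, GRCm38.p6, as are all positions here). Its signal was 162.0 and 222.0 in transgenic pools at 48 hours, against 189.1 and 192.5 in control pools. At 4 weeks it was 192.4 and 272.0 in transgenic pools, against 287.9 and 285.7 in control pools. The transgenic pools lay on both sides of the controls at 48 hours and both below them at 4 weeks. The mean was 192.0 ± 42.4 in transgenic and 190.8 ± 2.40 in control pools at 48 hours (SD, n = 2 each). The log2 difference at 4 weeks was −0.29 (SE 0.35, limma adjusted p = 0.995). It was −0.51 without transgenic 4 weeks pool 2 and −0.07 without transgenic 4 weeks pool 1. Both control pools at 4 weeks lay above both at 48 hours, with a log2 difference of 0.52 (SE 0.35, limma adjusted p = 0.882).

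F7 encodes factor VII, the protease that tissue factor binds (chr8:13025506-13035809). The signal was 40.8 and 26.2 in transgenic pools at 48 hours, against 23.5 and 18.7 in control pools. The 4 weeks signal was 96.7 and 108.6 in transgenic pools, against 121.7 and 121.8 in control pools. All 4 arrays of 4 weeks lay above all 4 of 48 hours, a separation in that direction found for 1.1% of the 13041 genes. It was near the array median at 4 weeks and below it at 48 hours, where a signal cannot be told from absence. F7 passed the filter only through transgenic 4 weeks pool 2 and control 4 weeks pool 1, arrays of the time at which it is high. Its comparison of the times is therefore a description, and nothing is read from the 1.1% or from the p-values of that comparison. The log2 difference between the times was 1.56 in control pools (SE 0.60, limma adjusted p = 0.758) and 1.06 in transgenic pools (SE 0.60, limma adjusted p = 1.0). Averaged over the genotypes, a comparison added after seeing the data, it was 1.31 (SE 0.42, limma adjusted p = 0.999). Between the genotypes the log2 difference was 0.30 at 48 hours and −0.19 at 4 weeks (SE 0.60 each, limma adjusted p = 0.984 and 0.995). The 4 weeks genotype difference was −0.26 without transgenic 4 weeks pool 2.

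F10 encodes factor X and lies next to F7 (chr8:13037308-13056676). Its signal was 112.7 and 194.3 in transgenic pools at 48 hours, against 164.8 and 171.7 in control pools. The signal at 4 weeks was 174.0 and 329.0 in transgenic pools, against 189.9 and 672.7 in control pools. The groups of each time overlap, and the highest value is that of control 4 weeks pool 2, whose actin ratio was 37.0-fold. The log2 difference at 4 weeks was −0.54 with all arrays (SE 0.55, limma adjusted p = 0.991) and 0.30 without that pool. It was −0.94 without transgenic 4 weeks pool 2. Both control pools at 4 weeks lay above both at 48 hours, with a log2 difference of 0.99 (SE 0.55, limma adjusted p = 0.848) and of 0.15 without control 4 weeks pool 2. F10 has 3 probe sets, and they disagree: the other 2 gave log2 differences of −0.60 and 0.23 at 4 weeks and of 0.43 and 0.08 at 48 hours.

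F5 encodes factor V, the cofactor of factor Xa (chr1:164151835-164220277). It gave 3608 and 3913 in transgenic pools at 48 hours, against 5244 and 7843 in control pools. At 4 weeks it gave 3177 and 3411 in transgenic pools, against 1046 and 1427 in control pools. No group overlapped another, and the order from the highest was control 48 hours, transgenic 48 hours, transgenic 4 weeks and control 4 weeks. The transgenic mean was 0.575 of the control mean at 48 hours and 2.67 times the control mean at 4 weeks, log2 differences of −0.77 and 1.41. The log2 difference between 4 weeks and 48 hours was −2.36 in control pools and −0.19 in transgenic pools. The 4 weeks genotype difference was 1.36 without transgenic 4 weeks pool 2 and 1.63 without control 4 weeks pool 2. A second probe set of F5 gave log2 differences of −1.03 at 48 hours and 1.20 at 4 weeks, and its log2 values correlated with those of the first at r = 0.95 over the 8 arrays, which both probe sets share.

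Serpinb2 encodes plasminogen activator inhibitor 2, a serpin that inhibits urokinase and that macrophages make when activated (chr1:107500892-107525600). It gave 1468 and 2918 in transgenic pools at 48 hours, against 2564 and 4450 in control pools. After 4 weeks it gave 1131 and 2246 in transgenic pools, against 153.3 and 491.9 in control pools. The groups overlap at 48 hours and are apart at 4 weeks, where the control pools are the lowest of the 8 arrays. The transgenic mean was 0.625 of the control mean at 48 hours and 5.24 times it at 4 weeks, log2 differences of −0.70 and 2.39. Leaving out pool 1 of the transgenic group brought the 48 hours difference to −0.21, and leaving out its pool 2 to −1.19, the ends of the range over single pools left out. The 4 weeks difference was 1.91 without transgenic 4 weeks pool 2, 3.14 without control 4 weeks pool 2 and 1.64 without control 4 weeks pool 1. Between 4 weeks and 48 hours the log2 difference was −3.46 in control pools and −0.37 in transgenic pools, and −0.86 there without transgenic 4 weeks pool 2. The order of the group means was that of F5, though only the control 4 weeks group was apart from its neighbour in that order.

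The bases before an annotated start of transcription are shown for these genes because the 2 genes ran together. Both windows come from RefSeq's annotation of GRCm38.p6, are on the plus strand and cover 250 bases. Serpinb2 has 2 annotated starts in that table, and the window of one of them is shown. That window lies inside the annotated span of Serpinb2 given above and not before the start of the span. Capitals mark the matches to the motifs searched.

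F5 (chr1:164151585-164151834): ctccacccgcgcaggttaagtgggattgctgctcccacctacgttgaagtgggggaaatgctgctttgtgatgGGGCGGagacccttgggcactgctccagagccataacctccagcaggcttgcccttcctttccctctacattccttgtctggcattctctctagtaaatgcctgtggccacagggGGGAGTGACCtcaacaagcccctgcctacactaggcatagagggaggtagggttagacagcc

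Serpinb2 (chr1:107511173-107511422): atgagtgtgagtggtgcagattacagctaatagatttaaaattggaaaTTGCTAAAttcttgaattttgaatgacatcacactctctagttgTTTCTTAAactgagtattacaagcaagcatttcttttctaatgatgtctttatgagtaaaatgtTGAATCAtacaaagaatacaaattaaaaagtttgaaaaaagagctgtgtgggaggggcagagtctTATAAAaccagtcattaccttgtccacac

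Short motifs of 8 factors or promoter elements were searched for on both strands. In the F5 window, an NF-kB match lies 62 bases before the start and a GC box 177 bases before it. The NF-kB motif was taken as GGGA, any 4 bases and then CC, which 17.6% of all 32851 promoter windows of this length hold. The GC box, with the letters GGGCGG, is held by 32.7% of them. In the Serpinb2 window, a TATA box lies 29 bases before the start, an AP-1 match 94 bases and C/EBP matches 158 and 202 bases before it. The TATA box, with the letters TATAAA, is held by 12.4% of all windows. The AP-1 motif was taken as TGANTCA, where N is any base, and is held by 6.75% of them. For C/EBP the letters were TTNNGNAA, held by 36.8% of all windows.

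No motif of the set was found in both of the windows shown. Neither held the PU.1 motif, whose letters GAGGAA are in 23.3% of all windows, nor the GATA motif, whose letters AGATAA are in 9.99% of them, though the window of the other Serpinb2 start holds GATA letters. Nor did they hold the CRE motif, with TGACGTCA as its letters, which 1.55% of all windows hold. The table had windows for 7 of the 9 genes, and AP-1 letters were also found before F3 and Plaur, but not before F7, F10 or Tfpi. Such matches describe the letters and say nothing of binding.

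Tfpi encodes tissue factor pathway inhibitor, which blocks factor Xa and the complex of tissue factor and factor VIIa (chr2:84432855-84476775). It gave 1651 and 1825 in transgenic pools at 48 hours, against 1282 and 1729 in control pools. At 4 weeks it gave 1765 and 1735 in transgenic pools, against 1925 and 1701 in control pools. The groups overlap at both times, and the highest array was 1.50 times the lowest, the smallest such ratio of the 9 genes. The log2 difference was 0.22 at 48 hours and −0.05 at 4 weeks (SE 0.24 each, limma adjusted p = 0.976 and 0.995). The 48 hours difference was 0.01 without control 48 hours pool 1, and that at 4 weeks was −0.04 without transgenic 4 weeks pool 2. The other 3 probe sets of Tfpi correlated with it at r = 0.42 to 0.48 over the 8 arrays. Of these, 1 ran from 504.2 to 821.5, and 1 from 166.9 in control 4 weeks pool 2 to 774.4 in control 4 weeks pool 1. The last was not level either, and ran from 249.1 to 581.4. That probe set gave 436.0 and 313.3 in transgenic pools at 48 hours, against 266.4 and 249.1 in control pools. At 4 weeks it gave 543.4 and 452.2 in transgenic pools, against 534.0 and 581.4 in control pools. Its transgenic pools were both above the controls at 48 hours, with a log2 difference of 0.47, and overlapped them at 4 weeks, with one of −0.16. Between 4 weeks and 48 hours in control pools its log2 difference was 1.03, against 0.28 for the probe set used.

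Thbd encodes thrombomodulin, the thrombin receptor that starts protein C activation (chr2:148404471-148408188). It gave 2621 and 1862 in transgenic pools at 48 hours, against 1325 and 1582 in control pools. After 4 weeks it gave 2771 and 1752 in transgenic pools, against 2798 and 3308 in control pools. The transgenic pools were both above the controls at 48 hours and both below them at 4 weeks, the reverse of F5. The log2 difference was 0.60 at 48 hours (SE 0.29, limma adjusted p = 0.976) and −0.46 at 4 weeks (SE 0.29, limma adjusted p = 0.986). The difference between these was −1.06 (SE 0.41, limma adjusted p = 0.988). In the control pools Thbd was 2.10 times as high at 4 weeks as at 48 hours, a log2 difference of 1.06 (SE 0.29, limma adjusted p = 0.586), while in the transgenic pools the mean was 2262 at 4 weeks and 2242 at 48 hours. Without transgenic 4 weeks pool 2 the 4 weeks genotype difference was −0.13.

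Plau encodes urokinase, the protease that activates plasminogen (chr14:20836662-20843388). Its signal was 44.9 and 73.6 in transgenic pools at 48 hours, against 208.3 and 49.6 in control pools. At 4 weeks it was 93.0 and 128.7 in transgenic pools, against 59.8 and 57.3 in control pools. It lay below the array median on 6 of 8 arrays, and at 48 hours control pool 1 alone was high. The log2 difference was −0.64 at 48 hours and 0.65 at 4 weeks, where the pools are apart (SE 0.63 each, limma adjusted p = 0.976 and 0.986). Plau passed the filter only through control 48 hours pool 1 and transgenic 4 weeks pool 2, arrays of the genotype with the higher mean at that time. Its differences are therefore descriptions, and nothing is read from their p-values. Without control 48 hours pool 1 the 48 hours difference was 0.14, and without transgenic 4 weeks pool 2 the 4 weeks difference was 0.47. A second probe set gave 0.77 at 48 hours and 0.35 at 4 weeks, so the probe sets are opposite at 48 hours.

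Plaur encodes the urokinase receptor, which holds urokinase at the cell surface (chr7:24460937-24475970). It gave 1389 and 1426 in transgenic pools at 48 hours, against 3984 and 1779 in control pools. The 4 weeks values were 1587 and 2382 in transgenic pools, against 959.6 and 2007 in control pools. Both transgenic pools were below both controls at 48 hours, and the groups overlap at 4 weeks. The log2 difference was −0.91 at 48 hours (SE 0.43, limma adjusted p = 0.976) and 0.48 at 4 weeks (SE 0.43, limma adjusted p = 0.986). At 48 hours it was −0.33 without control pool 1, and at 4 weeks it was 1.00 without control pool 2, 0.19 without transgenic pool 2 and −0.05 without control pool 1. The genotype difference at 4 weeks exceeded that at 48 hours by 1.38 (SE 0.60, limma adjusted p = 0.988). In control pools the log2 difference between 4 weeks and 48 hours was −0.92 (SE 0.43, limma adjusted p = 0.817).

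**Figure D2:**
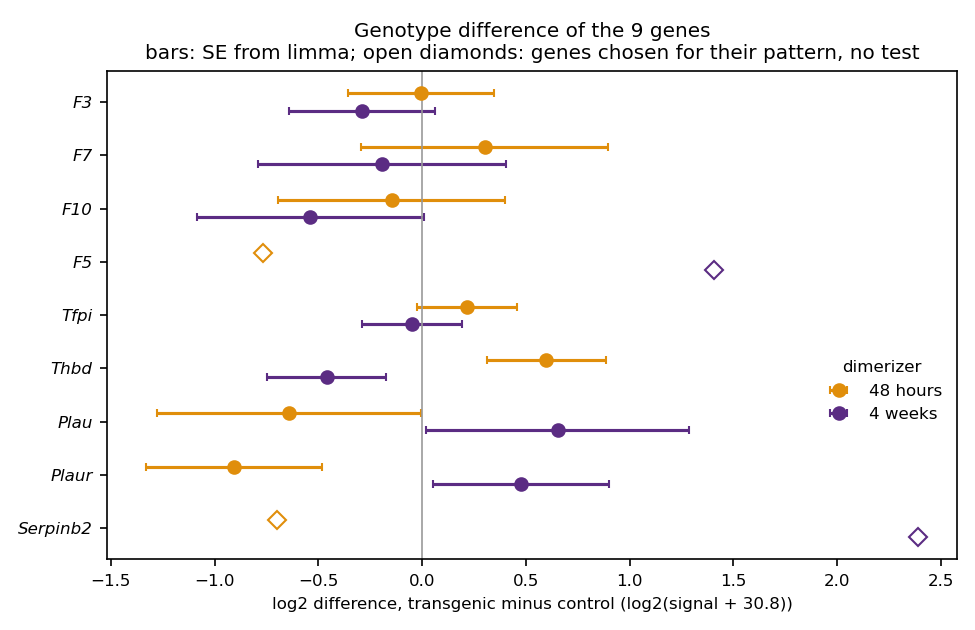
Log2 difference between transgenic and control pools of each of the 9 genes at 48 hours (orange) and at 4 weeks (purple), on the scale log2(signal + 30.8). Bars on the 7 tested genes are standard errors from limma, and open diamonds are F5 and Serpinb2, which were not tested; F5, Plau, Plaur and Serpinb2 lie below 0 at 48 hours and above it at 4 weeks, and F7, Tfpi and Thbd lie the other way round.

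Counted over the list, 2 of 9 genes (F7 and Thbd) had both transgenic pools above both controls at 48 hours, where 18.9% of the 13041 genes did, and 2 (F5 and Plaur) had both below, where 16.1% did. At 4 weeks 3 of 9 genes (F5, Plau and Serpinb2) had both transgenic pools above, against 14.7% of all genes, and 3 (F3, F7 and Thbd) had both below, against 17.2%. F5 and Serpinb2 are in these counts by choice. Plau passed the filter only through arrays of the group with the higher mean, so nothing is read from its place in them. Limma called 0% of genes at an adjusted p of 0.05 in the genotype comparison at 48 hours, at 4 weeks and in their difference. At an unadjusted p under 0.05 there were 531 (4.07%), 662 (5.08%) and 618 genes (4.74%) in these comparisons. Between the times, 0% were called in transgenic pools, with 286 (2.19%) at an unadjusted p under 0.05. In control pools 1 gene was called (0.00767%), with 803 (6.16%) at an unadjusted p under 0.05. That gene was F5, which was chosen for this pattern, so nothing is read from it. Averaged over the times or over the genotypes, limma called 0%, with 583 (4.47%) and 451 genes (3.46%) at an unadjusted p under 0.05. The median log2 difference of the 9 genes was −0.15 at 48 hours and −0.05 at 4 weeks, against 0.04 and −0.02 over all genes.

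Without transgenic 4 weeks pool 2, an alternative added after seeing the data for these counts, the remaining transgenic pool at 4 weeks lay above both controls for 3 of the 9 genes (F5, Plau and Serpinb2) and below both for 4 (F3, F7, F10 and Thbd). The shares over all genes were 30.5% and 29.3%. The sign of the 4 weeks difference was the same without that pool for all 9 genes. The difference between the genotype effects was then 1.09 for Plaur, −0.73 for Thbd and 2.12 for F5, which, like that of 2.60 for Serpinb2, is a description.

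Between the times in control pools, 4 of 9 genes (F3, F7, F10 and Thbd) had both pools higher at 4 weeks, where 18% of all genes did, and 2 (F5 and Serpinb2) had both lower, where 13.8% did. In transgenic pools 3 of 9 (F7, Plau and Plaur) were higher at 4 weeks in both pools, where 14.1% were, and F5 was the 1 gene lower in both, where 14.5% were. Opposite separations of the genotypes at the 2 times were found for F5, lower in transgenic pools at 48 hours and higher at 4 weeks, as in 2.29% of all genes, and for F7 and Thbd the other way, as in 3.21%. F5 was also the 1 gene of the 9 with all 4 arrays of 4 weeks below all 4 of 48 hours, as were 0.89% of all genes. Both F5 and Serpinb2 were chosen for their pattern on these same arrays, so nothing is read from their places in these counts. As for F7, it passed the filter only through arrays of 4 weeks, where it is high. Plau passed only through control 48 hours pool 1 and transgenic 4 weeks pool 2, each in the higher group of its comparisons. The genotype and time comparisons share their arrays, so a group that stands apart enters several of these counts.

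Across the 8 arrays, F5 and Serpinb2 had r = 0.959 between their log2 signals, and r = 0.828 over 6 arrays without the control 4 weeks pools, the 2 arrays farthest from the median of F5. Among the other pairs the highest were Plau with Plaur at 0.79, F3 with F10 at 0.76, F3 with F7 at 0.72 and F7 with Thbd at 0.71. The lowest were Tfpi with Plaur at −0.87, F5 with F7 at −0.83, and F5 with Thbd and Serpinb2 with Thbd at −0.78 each. The points share groups, pools and scaling, and these values are descriptions.

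Of the 13041 genes, the 5 whose log2 signals were most like those of F5 over the 8 arrays were Eif3a (r = 0.965), Serpinb2 (0.959), Siglecf (0.955), Gm4432 (0.955) and Trpm4 (0.952). Eif3a encodes a subunit of translation initiation factor 3, Siglecf a sialic acid receptor of eosinophils and alveolar macrophages, and Trpm4 a cation channel. The mean of Siglecf was 1009 in transgenic pools and 1319 in control pools at 48 hours, and 623.9 in transgenic pools and 308.9 in control pools at 4 weeks. For Serpinb2 the 5 were Snord89 (0.975), Lpcat2 (0.972), Coro2a (0.965), F5 (0.959) and Eif3a (0.959). Lpcat2 encodes an acyltransferase that makes platelet-activating factor, Snord89 a small nucleolar RNA and Coro2a an actin-binding protein. The mean of Lpcat2 was 1263 in transgenic and 1638 in control pools at 48 hours, and 1231 in transgenic and 487.1 in control pools at 4 weeks. The spans differ widely: Eif3a averaged 8350 in control pools and 9704 in transgenic pools at 4 weeks, a far smaller contrast than that of F5.

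**Figure D3:**
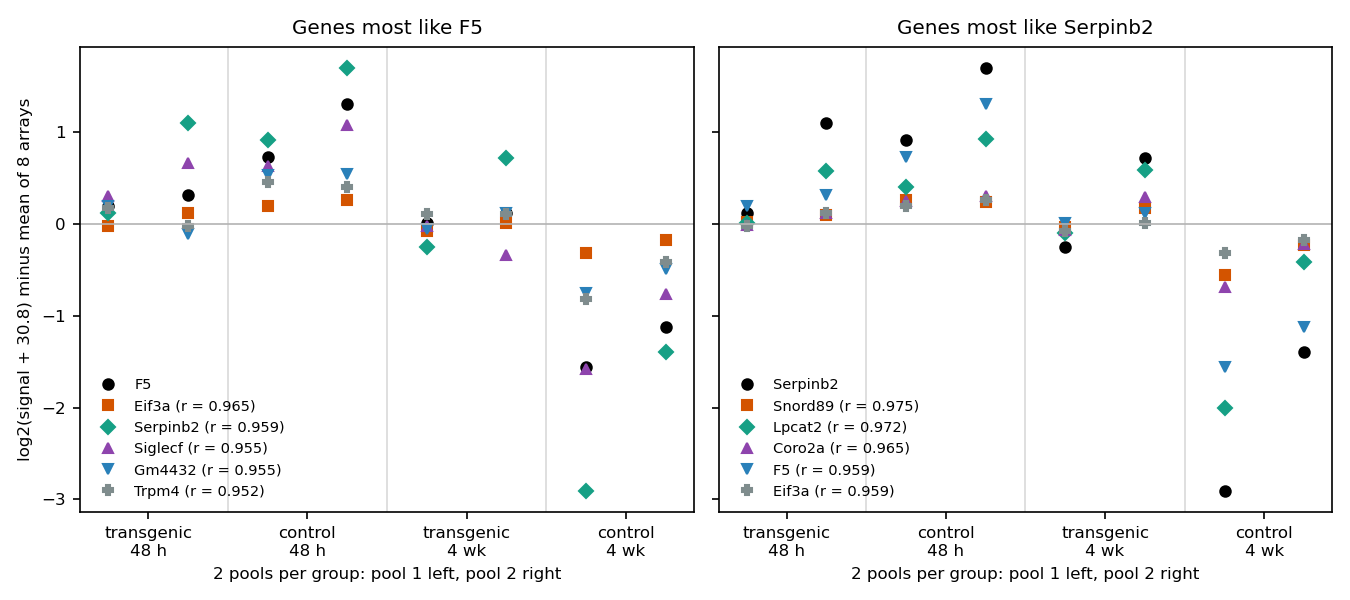
Log2(signal + 30.8) minus its mean over the 8 arrays for F5 (left) and Serpinb2 (right), in black, and the 5 genes most like each, in colour, with pool 1 left and pool 2 right in each group. All are lowest in the 2 control 4 weeks pools, and the spans run from that of Eif3a, which is small, to that of Serpinb2.

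Among 42 other genes of coagulation and the plasminogen system, 37 had a probe set of their own and 24 passed the filter on low signals. At limma's adjusted p of 0.05, 0 of the 24 were called in any of these comparisons, with 1 at an unadjusted p under 0.05 at 48 hours, where 4.07% of all genes were, and 2 at 4 weeks, where 5.08% were. The plasminogen gene Plg is among those 2, and it passed the filter only through control arrays. At 48 hours 13 of the 24 had a positive and 11 a negative difference, with a median of 0.06, and at 4 weeks 12 had each sign, with a median of 0.03. Without transgenic 4 weeks pool 2, 10 were positive and 14 negative at 4 weeks, with a median of −0.02, and 8 of the 24 changed sign. The other 5 listed genes were not analysed here.

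F2r encodes PAR1, the main thrombin receptor of many cell types. It gave 4605 and 6725 in transgenic pools at 48 hours, against 3745 and 10186 in control pools. The 4 weeks values were 4727 and 7727 in transgenic pools, against 1694 and 2973 in control pools. The groups overlap at 48 hours, and at 4 weeks the control pools are the lowest of the 8 arrays, as for F5 and Serpinb2. Its log2 difference was −0.15 at 48 hours (SE 0.46, limma adjusted p = 0.987) and 1.42 at 4 weeks (SE 0.46, limma adjusted p = 0.965), and the difference between these was 1.57 (SE 0.64, limma adjusted p = 0.988). Over the 8 arrays it had r = 0.837 with F5 and 0.907 with Serpinb2. F2rl2, which encodes the thrombin receptor PAR3, had log2 differences of −0.65 at 48 hours and 0.63 at 4 weeks (SE 0.47 each, limma adjusted p = 0.976 and 0.986). Without transgenic 4 weeks pool 2 the 4 weeks difference was 1.06 for F2r and 1.04 for F2rl2. The third receptor gene measured, F2rl3, did not pass the filter on low signals.

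Among clotting factors, F13a1, the A chain of the fibrin-crosslinking factor XIII, ranged from 32764 to 46116 over the 8 arrays. Its log2 difference was 0.08 at 48 hours and −0.04 at 4 weeks (SE 0.19 each, limma adjusted p = 0.987 and 0.995). Fgg, a fibrinogen chain, gave 509.6 and 558.2 in transgenic pools at 48 hours, against 95.3 and 172.3 in control pools. The pools are apart, with a log2 difference of 1.82 (SE 0.50, limma adjusted p = 0.976), and at 4 weeks the groups overlap with a difference of −0.21. Vwf, von Willebrand factor of endothelium and platelets, had log2 differences of 1.00 at 48 hours and 0.22 at 4 weeks (SE 0.61 each), and its highest array was transgenic 48 hours pool 2, which also had the highest sum of endothelial markers. Vkorc1, the vitamin K reductase, had log2 differences of 0.11 and −0.05 at 48 hours and 4 weeks (SE 0.25 each). Without transgenic 4 weeks pool 2 the 4 weeks differences were 0.02 for F13a1, 0.13 for Fgg, −0.38 for Vwf and 0.11 for Vkorc1, each of the opposite sign.

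Among anticoagulants, Pros1, the protein C cofactor protein S, gave 4702 and 4531 in transgenic pools at 48 hours, against 3411 and 3241 in control pools. The pools are apart, with a log2 difference of 0.47 (SE 0.23, limma adjusted p = 0.976), and the difference at 4 weeks was −0.26. Procr, the endothelial protein C receptor, had log2 differences of 0.32 and 0.11 at 48 hours and 4 weeks (SE 0.46 each), with overlapping pools at both times. Anxa5, the phosphatidylserine-binding annexin A5, had log2 differences of 0.23 and 0.14 (SE 0.23 each). The 4 weeks differences without transgenic 4 weeks pool 2 were −0.02 for Pros1, −0.58 for Procr and −0.13 for Anxa5, of which those of Procr and Anxa5 changed sign.

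In the plasminogen system, Plg, the gene of plasminogen itself, gave 8.6 and 17.9 in transgenic pools at 4 weeks, against 106.4 and 130.3 in control pools. The log2 difference was −1.76 (SE 0.61, limma adjusted p = 0.965), on signals that lay above the array median on 3 of 8 arrays. All 3 were control arrays, so Plg passed the filter only through the genotype in which it is high. The difference is therefore a description, and the signals below the array median cannot be told from absence. Anxa2, the plasminogen-binding annexin A2, was higher in both transgenic pools at both times, with log2 differences of 0.34 at 48 hours and 0.20 at 4 weeks (SE 0.18 each, limma adjusted p = 0.976 and 0.986). Its partner S100a10 had log2 differences of 0.08 and −0.34 (SE 0.17 each, limma adjusted p = 0.984 and 0.980). Plgrkt, a plasminogen receptor, had log2 differences of −0.07 and −0.12 (SE 0.27 each). Igf2r, which binds the urokinase receptor and plasminogen, had −0.38 and −0.72 (SE 0.35 each, limma adjusted p = 0.976 and 0.980), with both transgenic pools lower at both times. None of these 5 genes changed sign at 4 weeks without transgenic 4 weeks pool 2, where the differences were −1.92 for Plg, 0.21 for Anxa2, −0.50 for S100a10, −0.01 for Plgrkt and −0.43 for Igf2r.

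**Figure D4:**
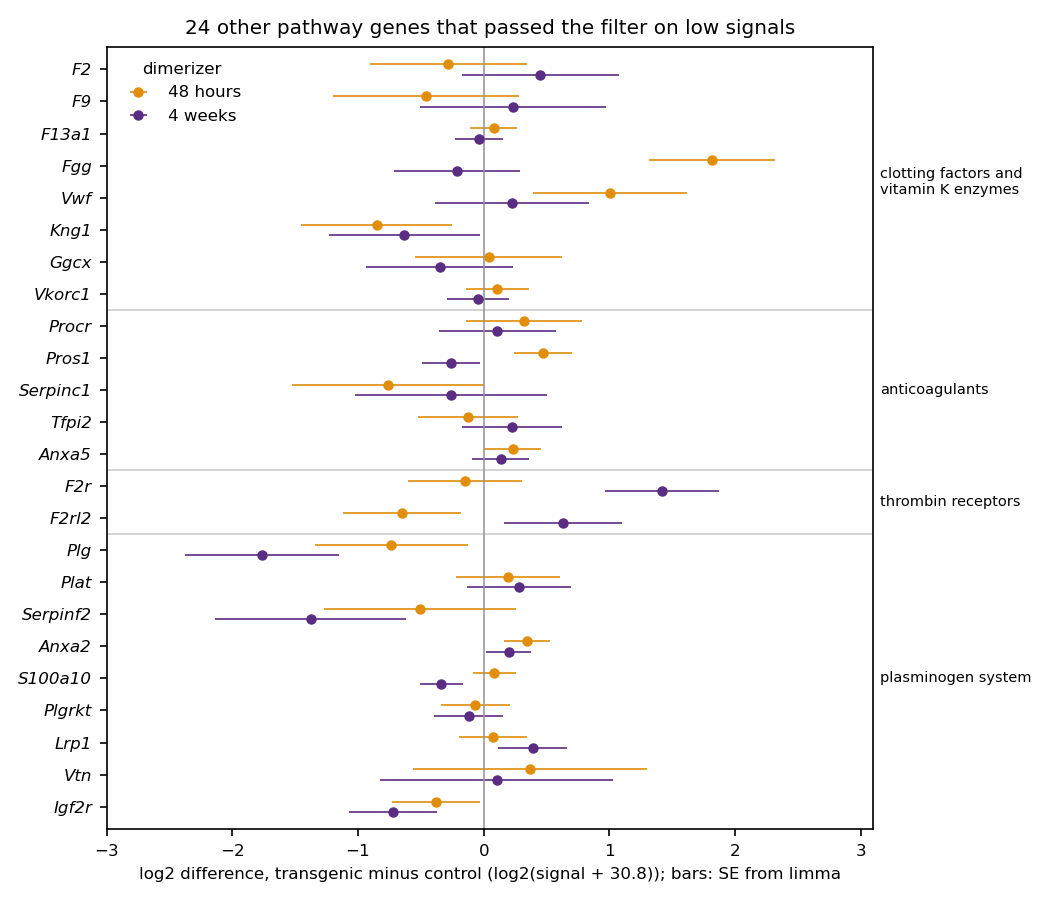
Log2 difference between transgenic and control pools of the 24 other pathway genes that passed the filter, at 48 hours (orange) and at 4 weeks (purple), with standard errors from limma as bars. The signs are mixed in clotting factors, anticoagulants and the plasminogen system, and both thrombin receptor genes lie below 0 at 48 hours and above it at 4 weeks.

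Markers of other cells differed in summed signal between some groups on the same arrays, with 0 genes called in limma, and their part in these results was not tested. In such bulk samples, fewer cells of a type and less RNA per cell cannot be told apart. The summed signal of 12 measured luminal epithelial markers of 14 listed, among them Krt8, Krt18, Krt19 and Epcam, was 13453 to 14251 in transgenic and 4889 to 5458 in control pools at 48 hours. It was 7701 to 12919 in transgenic and 10922 to 15912 in control pools at 4 weeks. The controls were thus lowest at 48 hours, where F5 was highest and Thbd lowest, and the log2 of the luminal sum had r = −0.67 with F5, −0.62 with Serpinb2, −0.82 with Plaur, 0.79 with Thbd and 0.70 with Tfpi over the 8 arrays. Luminal markers were not alone in values of this size. By the mean of the markers' log2 signals, r was −0.61 with F5 and −0.74 with Serpinb2 for the macrophage markers. For markers of serous cavity macrophages, given below, it was 0.74 with Thbd. The summed signals of those lists gave −0.29, −0.44 and 0.27. All these values are descriptions over arrays that share groups and scaling. The brightest luminal marker, Wfdc18, made up 33.3% to 43.7% of the sum. Without it the sum at 48 hours was 7572 to 9087 in transgenic and 2905 to 3228 in control pools. The luminal list did not move as one. Of the 11 luminal markers that passed the filter, 8 had both transgenic pools above both controls at 48 hours, and 1, Cldn3, had both below.

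The sum of 10 neutrophil markers of 11, among them S100a8 and S100a9, was 10721 to 10939 in transgenic and 15378 to 17858 in control pools at 48 hours, and 9174 to 9175 in transgenic and 12388 to 24301 in control pools at 4 weeks. It was thus lower in transgenic pools at both times. The list did not move as one: of the 9 neutrophil markers that passed the filter, 5 had both transgenic pools below both controls at 48 hours and 2, Ltf and Lcn2, had both above. The 13 serous cavity macrophage markers measured, of 14 listed, include Gata6, Selp, Prg4 and Icam2. Their sum was 17837 to 26295 in transgenic and 18745 to 21205 in control pools at 48 hours. At 4 weeks it was 29461 to 29603 in transgenic and 19167 to 23538 in control pools. That sum is mostly Fn1, the fibronectin gene, which was named after its values were seen and made up 49.5% to 79.0% of it. Without Fn1 the other 12 markers summed to 5976 to 5978 in transgenic and 4601 to 6388 in control pools at 48 hours, and to 6175 to 7105 in transgenic and 6548 to 11882 in control pools at 4 weeks, so that the groups overlap at both times. Of the 12 markers that passed the filter, 5 had a positive and 7 a negative difference at 4 weeks, with a median of −0.22. The 8 platelet markers of 10, whose sum is mostly Pf4, gave 47248 to 49965 in transgenic and 54067 to 55014 in control pools at 48 hours, and 46911 to 48861 in transgenic and 53566 to 58939 in control pools at 4 weeks. Pf4 made up 97.7% to 99.0% of that sum. Without Pf4 the other 7 markers summed to 724 to 878 in transgenic and 968 to 1265 in control pools at 48 hours. At 4 weeks they summed to 624 to 758 in transgenic and 585 to 1044 in control pools, where the groups overlap.

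Macrophage markers, 8 of 8, summed to 204611 to 216398 in transgenic and 213343 to 246388 in control pools at 48 hours, and to 216679 to 222910 in transgenic and 213082 to 248197 in control pools at 4 weeks, and thus overlap at both times. So did the sums of 12 of 12 endothelial, 10 of 10 fibroblast, 8 of 8 myoepithelial and 6 of 8 monocyte markers. The monocyte overlap rests on Plac8, which made up 29.6% to 72.4% of that sum. Without Plac8 the other 5 summed to 14399 to 14419 in transgenic and 16857 to 16947 in control pools at 48 hours. At 4 weeks they summed to 14840.5 to 17383 in transgenic and 13279 to 13291 in control pools. These sums are apart in opposite directions. Of the 6 monocyte markers, 3 had a positive and 3 a negative difference at each time. The fibroblast sum was 73346 to 76808 in transgenic and 38558 to 87212 in control pools at 48 hours, and 67054 to 86601 in transgenic and 57946 to 77668 in control pools at 4 weeks, and its log2 had r = 0.86 with Tfpi and −0.80 with Plaur. The endothelial sum was 2646 to 8924 in transgenic and 3129 to 4277 in control pools at 48 hours, and 2710 to 4301 in transgenic and 2879 to 4715 in control pools at 4 weeks. No marker of any of these lists was at 0 on any array.

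**Figure D5:**
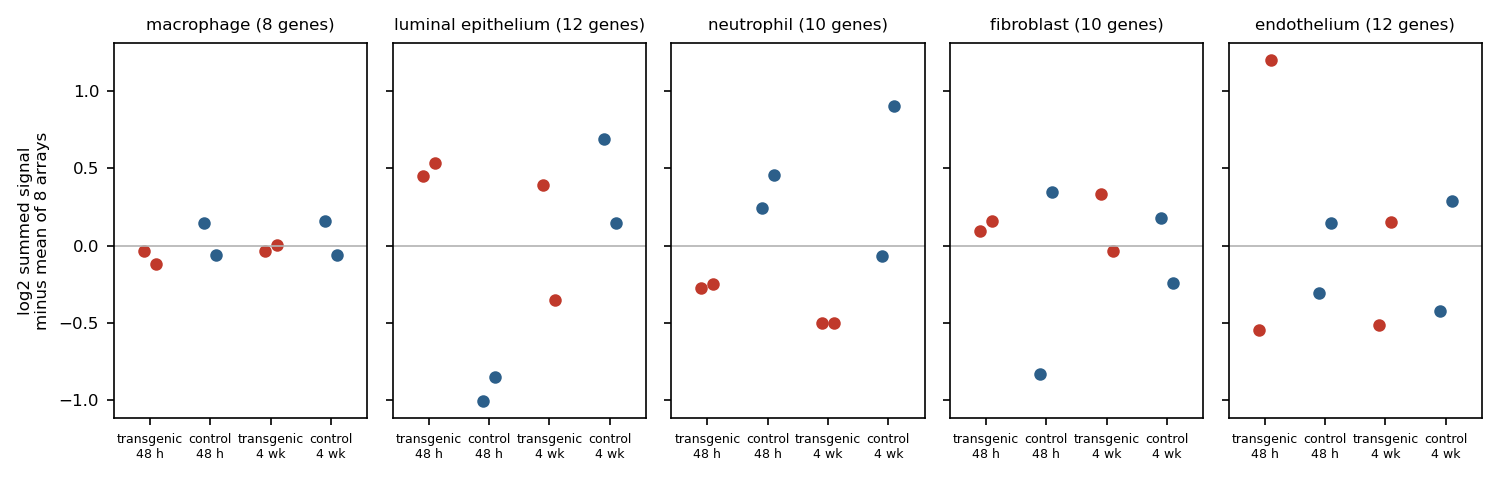
Log2 summed signal of the measured markers of 5 cell types, minus its mean over the 8 arrays, with transgenic pools in red and control pools in blue. The luminal sum is lowest in the 2 control 48 hours pools, the neutrophil sum is lower in transgenic pools at each time, and the macrophage sum is nearly level.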

How the data were processed

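The labels' protocols describe collagenase digestion of the glands, sorting of Cd11b-PE stained cells, pooling of 3 mice per array and amplification in a two-cycle protocol, which favours the 3′ end of transcripts. Each deposited value is the signal intensity of a probe set, which the authors computed with MAS5, a tool named without a version in the submitters' processing notes; detection calls were not used here. The array has 45101 probe sets, of which 34945 map to 1 gene symbol and were used. Left out were 64 control probe sets, 932 with several symbols and 9160 with none. Per gene the probe set with the highest mean signal was taken, which gave 18193 genes, of which 13041 lay above the array median on at least 2 arrays.

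On log2(signal + 30.8), limma 3.58.1 in R 4.3.3 fitted a mean for each of the 4 groups over all 8 arrays, with a trend in the prior variance and 4 residual degrees of freedom. Two-sided p-values were adjusted for the 13041 genes of each comparison by the Benjamini-Hochberg method, with 0.05 as the threshold. F5 and Serpinb2 were fitted with the rest, and their tests are not used. Signals are given as deposited, with mean ± SD over 2 pools.

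The members, the pathway lists and the marker lists were chosen with earlier results of these data known. The pathway genes named with values are the 3 of highest mean signal in each of 4 lists and the 3 with the smallest p in each genotype comparison, and for F5 and Serpinb2 the 5 genes of highest Pearson r are named, with the first genes of each marker list. Comparisons averaged over the times or over the genotypes were added after seeing the data. Promoter letters are from RefSeq. Alternatives were quantile normalization, other offsets and filters, each probe set separately, their mean, no trend, a block for pool number, only the arrays of one time, the actin ratio as a covariate, and each pool left out. The fit was tested on simulated data with known changes.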

Additional observations from a re-analysis of the deposited data

Results flagged for a closer look

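Of the 9 genes and the 24 other pathway genes, 5 had the pools of the genotypes apart at both times and in opposite directions. Over all 13041 genes, 2.29% were lower in transgenic pools at 48 hours and higher at 4 weeks in this way, and 3.21% were higher at 48 hours and lower at 4 weeks. F5 had a genotype difference 2.17 higher on the log2 scale at 4 weeks than at 48 hours, and it was chosen for this pattern, so the difference was not tested. F2rl2 had a genotype difference 1.28 higher at 4 weeks (SE 0.67, limma adjusted p = 0.988). For Thbd the difference between the times was −1.06 (SE 0.41, limma adjusted p = 0.988). For F7 it was −0.50 (SE 0.84, limma adjusted p = 0.990), on signals at or below the array median. For S100a10 it was −0.42 (SE 0.24, limma adjusted p = 0.988).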

How the results depend on the processing

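In 654 alternative values of the 7 tested genes over 5 comparisons, 0 passed an adjusted p of 0.05, and the lowest adjusted p was 0.262. Of 843 alternative values of the 9 genes, 40 changed sign; the cause was not tested. F5 changed sign in none of them. With quantile normalization the sign turned for F3 at 48 hours (0.08) and for Thbd between the times in transgenic pools (0.02). A covariate for the actin ratio turned it for F3 at 48 hours (0.02), F10 at 48 hours (0.23), at 4 weeks (0.31) and in the difference between these (0.08), and Thbd between the times in transgenic pools (0.00). With the mean of a gene's probe sets it turned for F10 at 48 hours (0.12), Plau at 48 hours (0.06) and Tfpi at 4 weeks (0.05). Other single probe sets turned F10 at 48 hours (0.43 and 0.08), at 4 weeks (0.23), in the difference between these (0.15) and between the times in control (−0.28) and transgenic pools (−0.13), Tfpi at 48 hours (−0.01), at 4 weeks (0.26 and 0.16), in the difference between these (0.27) and between the times in control pools (−0.05), and Plau at 48 hours (0.77), in the difference between these (−0.42) and between the times in control pools (0.61).

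Leaving out 1 pool at a time gave ranges that cross 0 for F3 at 48 hours (−0.20 to 0.19), F10 at 48 hours (−0.47 to 0.18), at 4 weeks (−1.37 to 0.30) and in the difference between these (−1.23 to 0.45), Tfpi at 4 weeks (−0.14 to 0.04), Plau at 48 hours (−1.43 to 0.14) and Plaur at 4 weeks (−0.05 to 1.00). Between the times the ranges cross 0 in transgenic pools for Tfpi (−0.06 to 0.08), Thbd (−0.33 to 0.32) and Serpinb2 (−0.86 to 0.12), and in control pools for Plau (−1.42 to 0.15).

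The count of genes called in limma was 0 at 48 hours and 1 with the arrays of that time alone (0 to 1 without a pool), and 0 at 4 weeks, with 2 under the pool number as a block and 1 with the arrays of that time alone (0 to 1 without a pool). In the difference between these it was 0, and 1 with the mean of a gene's probe sets (0 to 1). Between the times in control pools it was 1, and 0 with the 75th percentile filter, with the mean of probe sets or with no trend, 4 with the block and 7 with the actin ratio (0 to 7 without a pool, with 7 reached without control 4 weeks pool 2). Between the times in transgenic pools it was 0 (0 to 1 without a pool). Over both times the genotypes gave 0 (0 to 3), and over both genotypes the times gave 0 (0 to 1) and 1 with the block. The labels do not say that a pool number is shared between groups, and the correlation of same-numbered deviations ran from −0.085 to 0.133, with 3 of 6 pairs of groups over 0.1. The numbers were therefore not treated as pairs.

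Each group has 2 pools, so without 1 of them the other stands alone and is assumed to vary like the other groups. Signals below the array median, as for F7 and Plau, cannot be told from absence.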
